A study of Mus musculus with 6 samples.

Results

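S100 genes encode small proteins that bind calcium through a pair of EF-hand loops, mostly act as dimers and change shape when calcium rises in the cell. S100a8 and S100a9 encode the subunits of calprotectin, which fills the cytosol of neutrophils, chelates zinc and manganese away from microbes, binds polyunsaturated fatty acids such as arachidonic acid and, once released, acts as a danger signal through TLR4 and RAGE. Other S100 proteins bind annexins, cytoskeletal proteins and ion channels in many cell types. Of the 52636 genes in the deposited expression table, 10 were taken by symbol: S100a8, S100a9, S100a6, S100a11, S100a10, S100a4, S100a13, S100a1, S100a3 and S100a16. Of these, 9 reached a mean of 1 TPM over all libraries (TPM is a level per transcript length, scaled to 1 total in each library), and S100a16 did not.

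RNA of bone marrow neutrophils was sequenced from C57BL/6N mice aged 10 weeks, in 3 libraries labelled WT and 3 labelled with the genotype LRP5f/f/Lyz2Cre+, called LRP5-null in what follows. The Cre recombinase is driven by Lyz2, so that the floxed alleles of Lrp5, a receptor that the study links to uptake of polyunsaturated fatty acids, are deleted in monocytes and macrophages as well as neutrophils. No Cre or floxed allele is given for the WT group, and nothing says how many mice stand behind a library, so p-values measure only the spread between these samples, which may be technical. The labels name a Percoll gradient and an mRNA kit. The methods describe a Percoll gradient for neutrophils in general, but for the sequenced RNA flow sorting on CD11b and Ly6G and a kit for stranded total RNA.

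As a check of the labels, Lrp5 was 1.12, 1.31 and 1.42 TPM in WT replicates 1 to 3 and 1.68, 1.77 and 2.07 TPM in LRP5-null replicates 1 to 3 (log2 fold change 0.31, limma adjusted p = 0.136). The LRP5-null values of the targeted transcript were all above the WT values, so this transcript does not check the labels and directions below rest on them. Lyz2, the gene that holds the Cre, was lower in every LRP5-null library, at 24797 to 26791 TPM in WT against 13360 to 14027 TPM in LRP5-null (limma adjusted p = 0.00351). All 12 neutrophil markers examined passed the level filter, and 0 passed the group test, beside 0.532% of all genes. Without WT replicate 3, 3 of the markers passed, beside 19.6% of all genes. The markers summed to 98728 to 110011 TPM in WT and 99862 to 105834 TPM in LRP5-null. Libraries held 249841492 to 340580330 reads. WT replicate 3 differed from the other WT libraries in its share of ribosomal reads, which was 3.30% against 1.20% and 1.30%, with 2.69% to 2.98% in LRP5-null. Intronic reads were 7.78% to 9.0% in WT and 10.62% to 11.23% in LRP5-null. Coding and untranslated regions took 83.84% to 87.03% in WT and 81.85% to 82.41% in LRP5-null. Neither share overlapped between the groups, and their part in the S100 values was not tested. Results that changed without WT replicate 3 are given with and without it.

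The 10 genes lie on chromosome 3, in the groups that mammals share for this family. Promoter sequences from the RefSeq table (build GRCm38.p6) were found for 9 of the 10 genes, S100a10 being the one without an entry. The 160 bases directly before the transcription start are shown 5′ to 3′ for S100a8 and S100a9, the most abundant transcripts in these cells, for S100a11 and S100a6, the next by level, and for S100a4, which shares a TATA box with S100a8. Capitals mark the letters TATAAA (the TATA box), GCAAT (a core of C/EBP sites) and GAGGAA (a core of PU.1 sites), searched on both strands, so that ATTGC and TTCCTC are opposite-strand matches of the latter motifs.
S100a8, chr3:90668911-90669070, plus strand: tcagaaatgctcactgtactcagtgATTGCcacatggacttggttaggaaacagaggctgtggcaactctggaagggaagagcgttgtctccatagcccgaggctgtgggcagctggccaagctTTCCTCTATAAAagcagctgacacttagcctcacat
S100a9, chr3:90695722-90695881, minus strand: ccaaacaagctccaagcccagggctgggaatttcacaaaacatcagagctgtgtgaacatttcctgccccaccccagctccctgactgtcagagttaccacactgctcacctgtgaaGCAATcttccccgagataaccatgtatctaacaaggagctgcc
S100a11, chr3:93520336-93520495, plus strand: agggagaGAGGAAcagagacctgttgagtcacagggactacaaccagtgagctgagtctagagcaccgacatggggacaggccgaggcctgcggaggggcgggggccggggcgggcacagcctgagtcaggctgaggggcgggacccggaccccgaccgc
S100a6, chr3:90612734-90612893, plus strand: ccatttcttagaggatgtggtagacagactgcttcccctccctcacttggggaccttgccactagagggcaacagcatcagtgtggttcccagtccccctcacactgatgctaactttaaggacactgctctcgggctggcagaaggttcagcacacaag
S100a4, chr3:90603610-90603769, plus strand: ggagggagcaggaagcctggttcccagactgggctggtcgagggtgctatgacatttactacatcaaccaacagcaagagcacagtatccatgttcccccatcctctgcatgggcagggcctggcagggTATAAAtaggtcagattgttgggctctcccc

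S100a8 held TATAAA from base -30 to -25, counted back from the start, directly after an opposite-strand GAGGAA at -36 to -31, and an opposite-strand GCAAT at -135 to -131. Farther up, the window of 250 bases held another opposite-strand GAGGAA at -170 to -165 and another opposite-strand GCAAT at -238 to -234. S100a9 held GCAAT at -43 to -39 and no TATAAA. S100a4, which is expressed at under 5 TPM here, held TATAAA at -31 to -26, almost the position seen in S100a8. S100a11 held GAGGAA at -153 to -148, and S100a6 held none of these letters in its window. Of the members not shown, S100a3, also under 5 TPM, has 4 windows. Window 3 held TATAAA at -52 to -47 and opposite-strand GAGGAA at -189 to -184 and -16 to -11. Window 4 held opposite-strand GCAAT at -27 to -23. S100a16, at 0 in most libraries, held opposite-strand GAGGAA at -180 to -175 in window 1 of 2. S100a13 and S100a1 held none of these letters. Over the 250 bases before the start of all 32851 RefSeq mouse promoters, TATAAA was in 12.4%, GCAAT in 23.1% and GAGGAA in 23.3%. On the same strand and from 40 to 16 bases before the start, TATAAA was in 1.99%. The STAT motif TTCCNGGAA, in 0.913% of promoters, was in none of the members' windows. A letter match is a description only, and whether any factor binds there was not measured.

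The S100 levels spanned more than 4 orders of magnitude in every library, from S100a9 to S100a3, with S100a16 listed at 0 in 4 of 6 libraries. S100a9 was the most abundant transcript of the whole table in all 6 libraries and S100a8 was second in all 6. In WT replicates 1 to 3, S100a9 took 20.4%, 20.4% and 19.5% of all TPM, and in LRP5-null replicates 1 to 3 it took 23.0%, 23.1% and 22.2%. S100a8 took 14.5%, 15.1% and 10.7% in WT and 13%, 11.8% and 11.3% in LRP5-null. Between 96.7% and 97.5% of the summed S100 level came from these 2 genes.

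By median over the 6 libraries, S100a9 at 213018 TPM stood 1.72 times above S100a8 at 123689 TPM, and S100a8 stood 17.2 times above S100a11 at 7211 TPM. Below them came S100a6 at 2489 TPM, S100a13 at 94.7 TPM and S100a1 at 12.0 TPM. From S100a9 down to S100a4 at 3.72 TPM, neighbours in this order did not overlap in range. The ranges of S100a4 and S100a10 (median 3.20 TPM) overlapped, and S100a4 was the higher in 4 of 6 libraries. The ranges of S100a10 and S100a3 (median 2.75 TPM) overlapped too, although S100a10 was the higher in all 6.

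**Figure D1:**
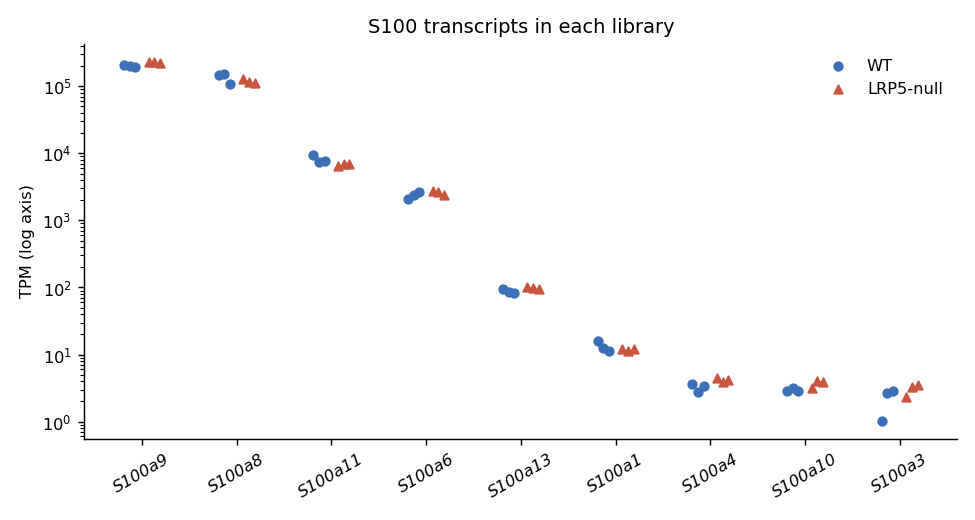
TPM of the 9 tested S100 genes in each library on a log axis, with genes in order of level and points for WT and LRP5-null libraries. S100a9 and S100a8 lie at 106912 TPM or more in every library, S100a11 and S100a6 between 2071 and 9420 TPM, and S100a13 near 100 TPM, with S100a1, S100a4, S100a10 and S100a3 below 16 TPM.

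Whether loss of LRP5 went with a change in any S100 transcript was tested with limma on log2(TPM + 1) over all 9775 genes whose mean reached 1 TPM. No S100 gene of the 9 tested passed an adjusted p of 0.05, a threshold that 0.532% of all genes passed. At an unadjusted p under 0.05 there were 5 of the 9 (S100a9, S100a11, S100a10, S100a4 and S100a13), against 23.5% of all genes. In the same 5 genes the 3 WT and 3 LRP5-null values did not overlap, as in 29.7% of all genes, with 4 higher in LRP5-null (17.4% of all genes were) and 1 lower (12.3%). The median log2 fold change of the 9 genes was 0.18, beside 0.04 for all genes tested, and adjusted p-values ran from 0.114 to 0.533. In these bulk samples, fewer cells of a type and less RNA per cell cannot be told apart.

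S100a9, which encodes the larger calprotectin subunit, was 204166, 203967 and 195191 TPM in WT replicates 1 to 3 and 229906, 230639 and 221870 TPM in LRP5-null replicates 1 to 3. Every LRP5-null library lay above every WT library, and the libraries of a group differed little. The means were 201108 ± 5125 TPM (SD, n = 3) in WT and 227472 ± 4865 TPM (SD, n = 3) in LRP5-null, a difference of 13.1%. The log2 fold change was 0.18 (standard error 0.047, 95% confidence interval 0.07 to 0.29, limma adjusted p = 0.114). It had the smallest adjusted p of the S100 genes.

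S100a8, which encodes the partner subunit, was 144914, 151287 and 106912 TPM in WT and 129627, 117752 and 112685 TPM in LRP5-null. The groups overlapped because WT replicate 3 was the lowest of all 6 libraries while WT replicates 1 and 2 were the highest. The means were 134371 ± 23993 TPM (SD, n = 3) in WT and 120021 ± 8696 TPM (SD, n = 3) in LRP5-null, so that the coefficient of variation in WT was 17.9% for S100a8 but 2.55% for S100a9. The log2 fold change was -0.15 (standard error 0.13, 95% confidence interval -0.45 to 0.16, limma adjusted p = 0.516).

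WT replicate 3 decided whether either calprotectin gene was called. Without it, the log2 fold change was -0.31 for S100a8 (limma adjusted p = 0.0283) and 0.16 for S100a9 (limma adjusted p = 0.038), so that 2 of 9 S100 genes passed, but 19.6% of all genes passed in that fit too. Against WT replicate 3 as the only WT library, S100a8 was 0.16 higher on the log2 scale in LRP5-null, opposite in sign, and once the ribosomal read share entered as a covariate it was 0.07 higher. S100a9 was higher in LRP5-null under both, by 0.22 and 0.21. The part of the ribosomal share in these values was not tested.

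The S100a8 to S100a9 ratio of TPM was 0.71, 0.742 and 0.548 in WT and 0.564, 0.511 and 0.508 in LRP5-null. WT replicate 3 fell within the LRP5-null range and WT replicates 1 and 2 stood above it, which are also the libraries with the lowest ribosomal shares of reads (1.30% and less). The mean ratio was 0.666 ± 0.10 (SD, n = 3) in WT and 0.527 ± 0.032 (SD, n = 3) in LRP5-null, a difference that did not pass an exact permutation test (two-sided, p = 0.2), where 3 libraries against 3 cannot go below 0.1. Together S100a8 and S100a9 made up 34.9%, 35.5% and 30.2% of all TPM in WT and 36%, 34.8% and 33.5% in LRP5-null (exact permutation test, two-sided, p = 0.7). The groups overlapped in the sum too. The mean of this sum was 1.20 percentage points higher in LRP5-null, a difference that was -0.467 points without WT replicate 3 and 4.54 points against that library alone.

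**Figure D2:**
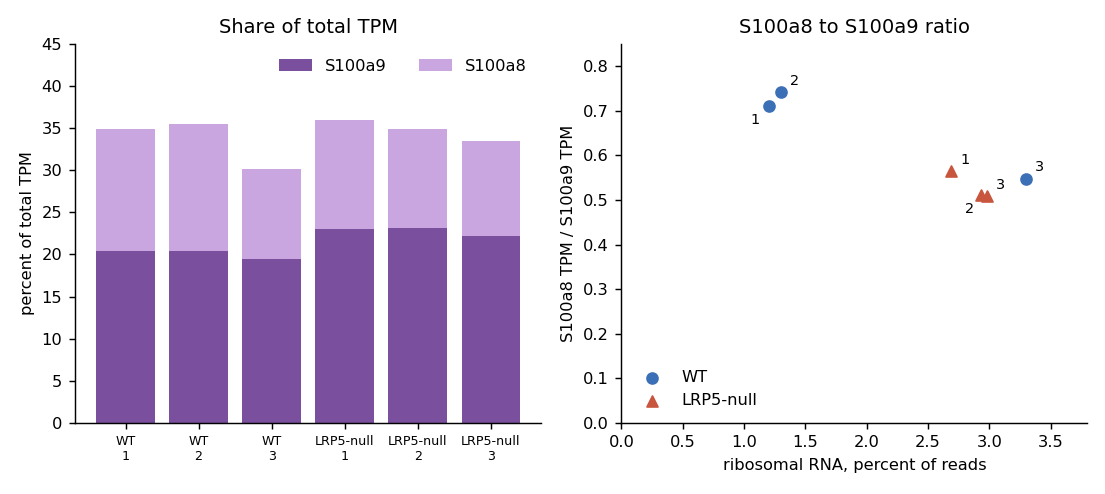
Left, bars of the share of all TPM, in percent, taken by S100a9 and by S100a8 stacked above it in each library. Right, the S100a8 to S100a9 ratio of TPM against ribosomal RNA in percent of reads, 1 point a library with its replicate number. S100a9 takes 19.5% to 20.4% in WT and 22.2% to 23.1% in LRP5-null, while the ratio of WT replicate 3 (0.548) lies among the LRP5-null values (0.508 to 0.564).

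These shares bear on every other value in the table, because each library is scaled to the same total. All genes other than S100a8 and S100a9 shared 65.1%, 64.5% and 69.8% of TPM in WT and 64.0%, 65.2% and 66.5% in LRP5-null. WT replicate 3 left the largest remainder. The transcripts are short (392 bases for S100a8 and 519 for S100a9). TPM was therefore also weighted by the length of each gene's longest protein-coding transcript. Of that weighted sum the pair took 10.5%, 10.8% and 9.02% in WT and 11.5%, 11% and 10.3% in LRP5-null. Genes without such a transcript were left out and full lengths were used, so these are not shares of reads. All 10 S100 genes together took 34.6% ± 2.9 (SD, n = 3) of TPM in WT and 35.7% ± 1.2 (SD, n = 3) in LRP5-null (exact permutation test, two-sided, p = 0.7).

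S100a11 encodes a partner of annexin A1. Its transcript was 9420, 7549 and 7641 TPM in WT and 6428, 6823 and 6873 TPM in LRP5-null. Every LRP5-null library lay below every WT library, with WT replicate 1 well above the others. Of the 9 tested members it was the only one whose groups did not overlap in the lower direction, at 8203 ± 1054 TPM (SD, n = 3) in WT and 6708 ± 244 TPM (SD, n = 3) in LRP5-null. The log2 fold change was -0.28 (standard error 0.092, 95% confidence interval -0.50 to -0.07, limma adjusted p = 0.149). Under all 18 alternatives its fold change kept this sign, from -0.41 with quantile normalization to -0.18 without WT replicate 1. Mainly through S100a11, the summed share of the 8 S100 genes other than the calprotectin pair was 1.16%, 1% and 1.04% of TPM in WT and 0.927%, 0.956% and 0.936% in LRP5-null.

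S100a6, or calcyclin, encodes a binding partner of CacyBP and of annexins. It was 2071, 2360 and 2620 TPM in WT and 2715, 2614 and 2364 TPM in LRP5-null. The groups overlapped, WT replicate 3 lying among the LRP5-null libraries. The log2 fold change was 0.13 (standard error 0.097, 95% confidence interval -0.10 to 0.36, limma adjusted p = 0.446), and it was 0.04 without WT replicate 1, 0.003 with GC and length trends removed and -0.03 against WT replicate 3 alone.

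S100a13, whose product takes part in the export of FGF1 and interleukin-1α, was 93.5, 86.2 and 82.8 TPM in WT and 101.7, 99.3 and 96.0 TPM in LRP5-null. The LRP5-null values all lay above the WT values. The log2 fold change was 0.18 (standard error 0.071, 95% confidence interval 0.01 to 0.34, limma adjusted p = 0.192), and it was 0.05 once trends of each library with transcript GC content and length were removed. S100a1, known from heart and skeletal muscle, where its product binds the ryanodine receptor, was 15.9, 12.4 and 11.1 TPM in WT and 12.0, 11.2 and 12.1 TPM in LRP5-null. Here the groups overlapped, with only WT replicate 1 set apart (log2 fold change -0.14, standard error 0.12, limma adjusted p = 0.533), and without that library the log2 fold change was -0.001.

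S100a13 and S100a1 point away from each other with 42 bases between them in the NCBIM37 (mm9) annotation, and their RefSeq promoter windows of 300 bases overlap by 204. The S100a13 to S100a1 ratio of TPM was 5.89, 6.94 and 7.44 in WT and 8.48, 8.87 and 7.94 in LRP5-null. The groups did not overlap in this ratio, which was chosen after the values had been seen and is given as a description only. Between 99.37% and 99.51% of reads were on the correct strand by the read summary.

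S100a4, S100a10 and S100a3 were near the lower limit of the tested genes. S100a4, which encodes a regulator of non-muscle myosin IIA and marks fibroblasts and some monocytes, was 3.61, 2.79 and 3.34 TPM in WT and 4.43, 3.83 and 4.17 TPM in LRP5-null. The lowest LRP5-null library lay just above the highest WT library (log2 fold change 0.28, standard error 0.10, limma adjusted p = 0.163). S100a10, which encodes the partner of annexin A2 and has lost calcium binding, was 2.89, 3.18 and 2.90 TPM in WT and 3.22, 4.05 and 3.94 TPM in LRP5-null. LRP5-null replicate 1 was barely above WT replicate 2 (log2 fold change 0.24, standard error 0.096, limma adjusted p = 0.189).

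S100a3, best known from the hair cuticle, was 1.02, 2.68 and 2.82 TPM in WT and 2.37, 3.30 and 3.50 TPM in LRP5-null. WT replicate 1 stood far below the rest, the groups overlapped, and the standard error of 0.25 was the largest among the S100 genes (log2 fold change 0.40, limma adjusted p = 0.361). The fold change was 0.10 without WT replicate 1 and 0.08 against WT replicate 3 alone. S100a16 was listed at 0 in the 3 WT libraries and in LRP5-null replicate 3, and at 0.0135 and 0.0279 TPM in LRP5-null replicates 1 and 2. It was not tested. Read counts cannot be had from TPM, which leaves the counting error behind such low values unknown, and the pseudocount of 1 understates their fold changes.

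**Figure D3:**
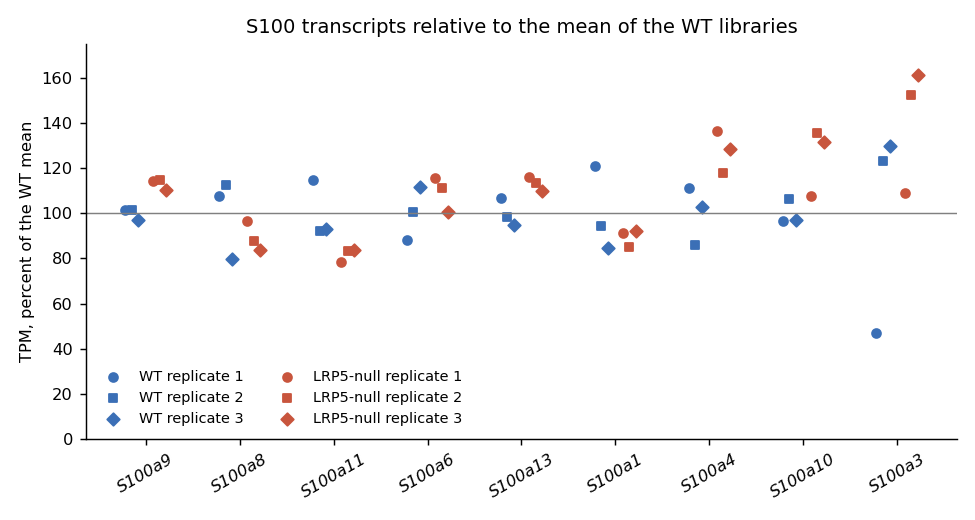
TPM of each library in percent of the same gene's WT mean, for the 9 tested S100 genes, with WT points in blue, LRP5-null points in red and a marker shape for each replicate number. S100a9, S100a13, S100a4 and S100a10 have all LRP5-null points above all WT points and S100a11 has them below, whereas S100a8, S100a6, S100a1 and S100a3 overlap.

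**Figure D4:**
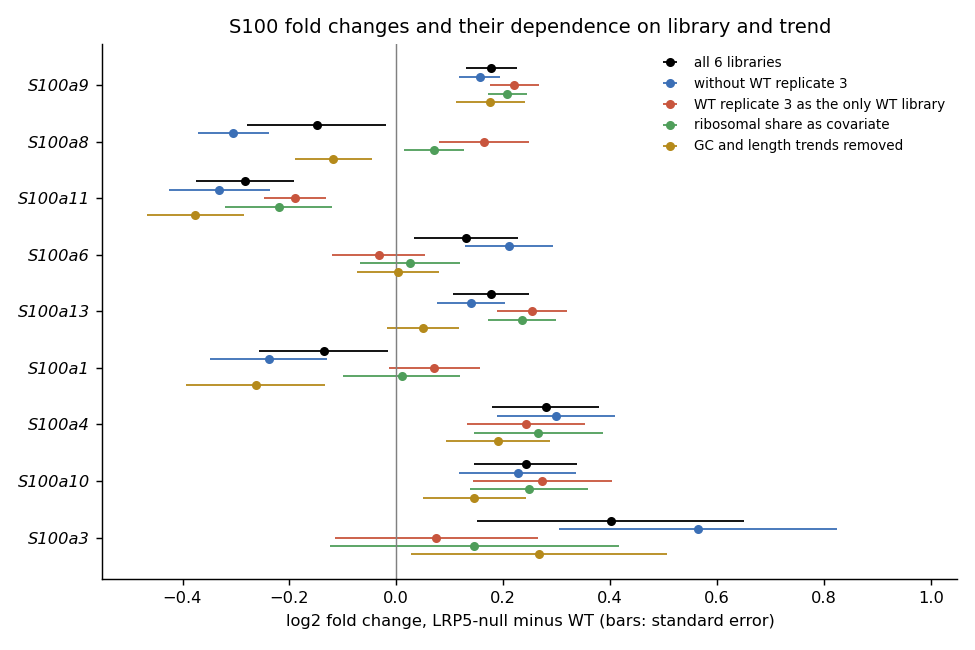
Log2 fold change of each S100 gene, LRP5-null minus WT, with bars for the standard error, from all 6 libraries and from 4 alternatives. S100a9 (0.18 from all libraries), S100a11 (-0.28), S100a13, S100a4, S100a10 and S100a3 keep their sign in each. S100a6 and S100a1 do not, and S100a8 runs from -0.31 without WT replicate 3 to 0.16 with that library as the only WT.

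The spread between replicates also differed along the family. The coefficient of variation in WT ran from 2.55% for S100a9 to 46.2% for S100a3, and in LRP5-null from 2.14% for S100a9 to 19.8% for S100a3. It was smaller in LRP5-null than in WT for 8 of the 9 tested genes, S100a10 being the exception at 12.1% against 5.32%. The share of all genes with a smaller spread in LRP5-null was not counted, so the 8 of 9 is a description and not a trait of the S100 genes. No test of the spreads was made.

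On chromosome 3 of NCBIM37 (mm9), 8 of the members lie within 184688 bases, from S100a1 (start 90314956) to the end of S100a9 (90499643), in the order S100a1, S100a13, S100a16, S100a3, S100a4, S100a6, S100a8 and S100a9. S100a8 (90472993 to 90473956, plus strand) and S100a9 (90496554 to 90499643, minus strand) have 22597 bases between them. S100a11 (93324410 to 93330209, plus strand) and S100a10 (93359002 to 93368565, plus strand) lie 2824766 bases beyond S100a9, with 28792 bases between them. Level did not follow position: S100a10 had a median of 3.20 TPM beside S100a11 at 7211 TPM, and S100a4 had 3.72 TPM with 6848 bases between it and S100a6 at 2489 TPM. The longest transcript has 3 exons in each member other than S100a13, which has 4.

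Between the outermost members lay 64 genes without an S100 symbol, many of which serve the cornified layer of skin. They include fused-type relatives of the family, such as Hrnr and Flg2, which are listed again below. Of the 64, 57 were listed at 0 in every library, among them 35 of 35 Lce and Sprr genes, multigene families whose reads can be split between copies. A mean of at least 1 TPM was reached by 2 of the 64, named here after their values were seen. Pglyrp4, which encodes a peptidoglycan recognition protein, averaged 1.5 TPM (log2 fold change -0.10, limma adjusted p = 0.554), and the predicted gene Gm4202 differed by -0.24 on that scale (limma adjusted p = 0.279).

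**Figure D5:**
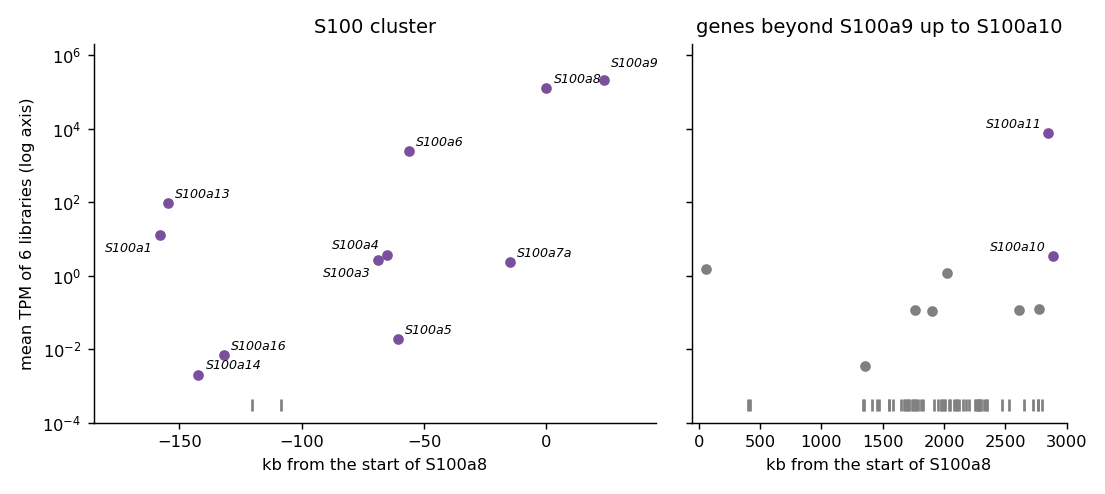
Mean TPM over the 6 libraries on a log axis against distance from the start of S100a8 in kb, with S100 genes in purple, other genes in grey and genes listed at 0 as ticks near the lower edge. S100 genes near each other differ by orders of magnitude, and 57 of the 64 genes without an S100 symbol are ticks.

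Of a list of 17 further S100 genes and relatives, 15 were in the table, 8 of them were at 0 in every library (S100g, S100z and the fused-type genes Hrnr, Flg, Flg2, Rptn, Tchhl1 and Crnn), and 3 were tested. None of the 3 passed the test. S100a7a, which lies between S100a6 and S100a8, was 2.50, 2.93 and 2.48 TPM in WT and 1.81, 2.34 and 1.79 TPM in LRP5-null, without overlap (log2 fold change -0.29, limma adjusted p = 0.162).

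Among the receptors through which calprotectin acts and their adaptors, 0 of 6 tested genes passed (2 without WT replicate 3, where 19.6% of all genes did). The median log2 fold change was 0.11, beside 0.04 for all genes. Without overlap, 2 of these genes were higher in LRP5-null (17.4% of all genes were) and 1 was lower (12.3%). Ly96, which encodes the MD-2 subunit of the TLR4 receptor, was 17.5, 14.3 and 12.7 TPM in WT and 9.25, 11.1 and 9.91 TPM in LRP5-null, each LRP5-null library lying below each WT library (log2 fold change -0.51, limma adjusted p = 0.102). Ager, which encodes RAGE, was 3.33, 3.85 and 4.73 TPM in WT and 5.74, 4.79 and 5.88 TPM in LRP5-null, again without overlap but in the higher direction (log2 fold change 0.39, limma adjusted p = 0.147). Bsg was also higher without overlap (log2 fold change 0.22, limma adjusted p = 0.286). Tlr4 swung between 9.98 and 52.6 TPM within WT, so that its spread exceeded any group difference (chosen for mention after its values were seen).

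The phagocyte NADPH oxidase is the complex to whose flavocytochrome calprotectin delivers arachidonic acid. Of its 6 genes 0 passed the test (1 without WT replicate 3, where 19.6% of all genes did). Their median log2 fold change was 0.01. Without overlap, 1 was higher in LRP5-null (17.4% of all genes were) and 2 were lower (12.3%). Cyba, the p22phox subunit, was 1585 ± 92.7 TPM (SD, n = 3) in WT and 1824 ± 70.0 TPM (SD, n = 3) in LRP5-null, higher without overlap (limma adjusted p = 0.149). Ncf1, the p47phox subunit, was 1208 ± 69.6 TPM (SD, n = 3) in WT and 1038 ± 50.7 TPM (SD, n = 3) in LRP5-null, lower without overlap (limma adjusted p = 0.141). Cybb was lower without overlap too (log2 fold change -0.095, limma adjusted p = 0.354). Of the binding partners of other S100 proteins, 0 of 7 passed (2 without WT replicate 3, beside 19.6% of all genes) and the median was 0.03. Without overlap, 1 of these partners was higher (17.4% of all genes were) and 0 were lower (12.3%). Anxa1, the S100a11 partner, was 5819 ± 61.4 TPM (SD, n = 3) in WT and 6194 ± 115 TPM (SD, n = 3) in LRP5-null, without overlap (limma adjusted p = 0.312), the opposite direction to S100a11. Anxa2, the S100a10 partner, was 1369 to 1523 TPM over the 6 libraries, although S100a10 was below 5 TPM.

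Of 8 factors known to act on S100a8 and S100a9, 0 passed (2 without WT replicate 3, where 19.6% of all genes did). Their median log2 fold change was 0.12. Without overlap, 2 of the factors were higher in LRP5-null (17.4% of all genes were) and 1 was lower (12.3%). Cebpb was 167, 185 and 245 TPM in WT and 245, 263 and 267 TPM in LRP5-null, WT replicate 3 lying within the LRP5-null range (log2 fold change 0.39, limma adjusted p = 0.159). Cebpe, needed for the late granules of neutrophils, was 268, 317 and 305 TPM in WT and 357, 344 and 337 TPM in LRP5-null, without overlap (log2 fold change 0.23, limma adjusted p = 0.159). Cebpd was higher without overlap too (log2 fold change 0.12, limma adjusted p = 0.294). Spi1, which encodes PU.1, was 538 TPM in WT and 501 TPM in LRP5-null on average, lower without overlap (limma adjusted p = 0.379).

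Stage markers of neutrophil maturation are given beside S100a8 and S100a9. Of 15 genes of immature neutrophils, 0 passed, 9 were higher in LRP5-null without overlap, as 17.4% of all genes were, and the median log2 fold change was 0.23. Of 14 genes of mature neutrophils, 7 were lower without overlap (12.3% of all genes were), the median was -0.20, and 1 passed, the chemokine gene Cxcl2 at 339 ± 16.4 TPM (SD, n = 3) in WT and 242 ± 10.1 TPM (SD, n = 3) in LRP5-null (limma adjusted p = 0.0371). The Cxcl2 call held under 7 of 18 alternatives, all with the same sign (limma adjusted p from 0.0103 to 0.178), and under 1 of the 6 fits that left out a library, the fit without WT replicate 3. In that fit 7 genes of the mature list and 2 of the immature list passed, beside 19.6% of all genes. Camp and Mmp8 had log2 fold changes of 0.35 and -0.41 (limma adjusted p = 0.0648 for both). Both are in the neutrophil list, and also in the immature list (Camp) and the mature list (Mmp8). They are thus among the genes without overlap just counted. Other genes, such as Cebpe, are in more than 1 list too. The part of maturation stage in the S100 values was not tested.

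Each list of markers of other blood cells summed to less than S100a8, S100a9, S100a11 or S100a6. The monocyte and macrophage list summed to more than each of the remaining S100 genes, of which S100a13 was the highest (median 94.7 TPM). The sum of that list was 577 to 737 TPM in WT and 649 to 702 TPM in LRP5-null, most of it Ly6c2. Of its 9 tested genes 0 passed (2 without WT replicate 3, where 19.6% of all genes did). The median log2 fold change of this list was 0.01, beside 0.04 for all genes, with 6 of the 9 higher and 3 lower. Without overlap, 3 were higher in LRP5-null (17.4% of all genes were) and 0 lower (12.3%). The 3 were C1qb, Adgre1 and C1qa, with log2 fold changes of 0.44, 0.36 and 0.24 (limma adjusted p = 0.0648, 0.103 and 0.16). C1qb averaged 2.54 TPM in WT and 3.82 TPM in LRP5-null. T and NK cell genes summed to 1.21 to 1.85 TPM over all libraries with 0 of 6 reaching the filter, B cell genes to 12.9 to 14.7 TPM with 0 of 5 past the test, and erythroid genes to 40.9 to 54.8 TPM with 0 of 3. The eosinophil and basophil list summed to 9.91 to 12.4 TPM in WT and 13.3 to 14.3 TPM in LRP5-null, and 1 of its 3 tested genes passed, Prg2, the eosinophil major basic protein gene, at 1.02 ± 0.16 TPM (SD, n = 3) in WT and 2.79 ± 0.41 TPM (SD, n = 3) in LRP5-null (limma adjusted p = 0.0341). The Prg2 call held under 9 of 17 alternatives (limma adjusted p from 0.0123 to 0.178), and was lost when WT replicate 1 or 2, or LRP5-null replicate 1 or 3, was left out. No marker list had a gene at 0 in every library. The part of other cells in the S100 values was not tested.

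Among the 5228 genes averaging 10 TPM or more, those most like an S100 gene were taken as the 3 with the smallest root mean square difference of log2(TPM + 1) over the 6 libraries, each gene centred on its mean. For S100a9, whose own spread on this scale was 0.0932, they were the proteasome subunit gene Psmb6 (0.0185), the cytochrome c oxidase subunit gene Cox5b (0.0217) and Cuedc2 (0.022). For S100a8 (own spread 0.184) they were the stefin gene Stfa1 (0.0572), the kinetochore gene Spc25 (0.0638) and the splicing factor gene Hnrnph1 (0.0639), so that no gene followed S100a8 as closely as Psmb6 followed S100a9. S100a11 (own spread 0.178) was nearest to the cohesin gene Smc3 (0.0179), Pabpc1 (0.0358) and Gm37691 (0.0384). S100a6 (own spread 0.132) was nearest to Mrpl27 (0.0289), Stk16 (0.0355) and Fis1 (0.0439). Neither S100a8 nor S100a9 was among the genes nearest to the other. These likenesses describe 6 libraries only and carry no test.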

How the data were processed

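RNA of mouse bone marrow neutrophils was compared between 3 WT and 3 LRP5-null libraries. Reads were aligned to the mouse genome, mm9 and DESeq2 being the build and tool in the submitters' processing notes. The authors deposited TPM values, scaled per gene length and to the same total in each library; the tool that gave TPM is not given in the sources used here. A read summary, also deposited, holds counts of reads, shares in percent, a ratio for coverage bias at transcript ends, a coverage variation score and insert sizes. It lists reads of 94 bases with an insert size, whereas the methods name single-end reads.

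The 9775 of 52636 genes whose mean reached 1 TPM were tested with limma 3.58.1 (R 4.3.3; trend, Benjamini-Hochberg over all genes tested) on log2(TPM + 1), without covariates. No count model was run, as TPM holds no counts and the depth per gene is unknown. Shares and ratios were compared with two-sided exact permutation tests (scipy 1.17.1), and under the replicate block with two-sided exact sign-flip tests. The scripts were tested on simulated data with 200 changed genes. Transcript features came from the NCBIM37 annotation, promoters from RefSeq (GRCm38.p6), and coordinates were not converted between builds.

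The S100 genes and gene lists were chosen with earlier results of these data known. Named were all 10 members, list genes past the threshold or with the smallest p, some of the list genes without overlap, and the 3 genes of most like pattern. Alternatives covered the pseudocount (0.1), filters (none, or 5 TPM), scalings (median ratio, quantile, leaving out mitochondrially encoded and the 20 most abundant genes), limma with robust shrinkage or no trend, leaving out each library, a replicate block, the ribosomal share, WT replicate 3 alone, and GC and length trends (known for 89.7% of tested genes).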

Additional observations from a re-analysis of the deposited data

How the results depend on the processing

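No S100 gene was called under the alternatives tried other than the fit without WT replicate 3, so that leaving out 1 library gave 0 to 2 calls. S100a9 was higher in LRP5-null in all but quantile normalization. There, rank 1 for S100a9 and rank 2 for S100a8 in every library fix both fold changes at 0, so neither could be called. The count of 5 S100 genes without overlap (29.7% of all genes) became 3 under a filter of 5 TPM (6 tested, 30.6% of all genes) and 3 with median-ratio scaling (32.0%). It was 1 with quantile normalization (30.2%), where S100a8 and S100a9 could not differ, and 2 with GC and length trends removed (31.3%). It was 5 to 8 when 1 library was left out, 8 without WT replicate 3 (56.1%). The sign turned for S100a8 (0.07 with the ribosomal covariate, 0.16 with WT replicate 3 alone), S100a1 (0.01 and 0.071) and S100a6 (-0.033 with WT replicate 3 alone). The summed S100 share, 1.07 percentage points higher in LRP5-null, ran from -0.609 (without WT replicate 3) to 2.03 when 1 library was left out and was 4.44 against WT replicate 3 alone. For S100a8 plus S100a9 (1.20) these were -0.467 to 2.19 and 4.54. The ratio difference of -0.139 ran from -0.198 to -0.101, and was -0.0203 against WT replicate 3 alone. The cause was not tested.

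Samples share only a number: the deviations of same-numbered libraries correlated at 0.229, -0.0075 and 0.131. With the replicate block, 0 S100 genes were called (smallest adjusted p = 0.128, limma, S100a9). For shares and the ratio, the signs of the same-numbered differences were flipped in every way. This two-sided exact test cannot go below 0.25 with 3 libraries a group. The differences were 1.07 (exact sign-flip p = 0.5) for the summed share and 1.20 (exact sign-flip p = 0.5) for the pair. For the ratio the difference was -0.139 (exact sign-flip p = 0.25), which is the lowest p that this test can give. With no read counts per gene, depth limits the low genes, S100a3, S100a4 and S100a10, to an unknown degree.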
